A study of Mus musculus with 18 samples.

Results

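The 8 genes described here encode the serine synthesis pathway and the folate enzymes that carry the carbon unit taken from serine, mainly in mitochondria. They were found by symbol (*Phgdh*, *Psat1*, *Psph*, *Shmt1*, *Shmt2*, *Mthfd2*, *Mthfd1l* and *Aldh1l2*) in a count table of 57180 genes, each in a single row, and all 8 were among the 14263 genes expressed highly enough to be tested. The counts came from L929 cells, an established mouse fibroblast line that grew from a single cloned cell, so every group shares that line, and no gene was targeted in these cultures. There were 6 groups of 3 separate cultures, and the 18 libraries held between 17901605 and 24057343 counts each. Mock cells received DMSO, and AOA cells received 0.5 mM AOA (aminooxyacetic acid, which blocks aminotransferases). In the AOA+Asp group 20 mM aspartate, the amino acid that these transaminases help to make, was given together with AOA. HT-DNA cells were transfected for 6 h with 0.5 μg/ml herring testis DNA, a ligand of the cytosolic DNA sensor cGAS. The HT-DNA+AOA group was exposed to AOA from 1 h before that transfection, and the HT-DNA+AOA+Asp group to aspartate as well. Aspartate was never given without AOA, so its own effect on these genes cannot be read from these libraries. The paper states that HT-DNA was delivered with the reagent Lipofectamine, and no group is described as given that reagent without DNA. Effects of the DNA and of the reagent therefore cannot be told apart where cells with and without HT-DNA are compared.

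Cells make serine from a glycolytic intermediate. PHGDH oxidizes 3-phosphoglycerate, PSAT1 transfers an amino group from glutamate, and PSPH removes the phosphate. PSAT1 is itself an aminotransferase that depends on pyridoxal phosphate, the cofactor with which AOA reacts. The serine hydroxymethyltransferases SHMT1 (cytosol) and SHMT2 (mitochondria) split serine into glycine and a carbon unit bound to tetrahydrofolate. In mitochondria MTHFD2 oxidizes that unit, MTHFD1L releases it as formate for purine synthesis in the cytosol, and ALDH1L2 instead oxidizes it to carbon dioxide while making NADPH. Several of these genes are known targets of ATF4, a transcription factor of the response to amino acid shortage.

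All values are CPM, estimated read counts brought to a common library size by edgeR's TMM method, and between 1285 and 23811 counts lay behind each member's value in a library. A gene was called higher or lower where edgeR's quasi-likelihood test over all tested genes gave a Benjamini-Hochberg adjusted p below 0.05. CPM is relative to the RNA in a library, so neither a change in the number of cells nor a change in total RNA per cell can be seen in it. A higher CPM need not mean more copies per cell. For each gene the test used a single estimate of spread from all 18 libraries, 3 cultures in each of 6 groups. The p-values and intervals of every comparison rest on that estimate. HT-DNA+AOA, the group whose replicates varied most, therefore also entered it for comparisons without that group.

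Some features of the libraries bear on the members. The replicates of HT-DNA+AOA differed more from each other than those of any other group, with a chi-square per degree of freedom of 16.6 to 60.8 between its pairs against 2.69 to 12.1 elsewhere. Libraries also differed in their GC trend, the log2 excess of GC-rich over GC-poor genes relative to the average library, which was 0.29 to 0.51 in HT-DNA, -0.48 to -0.16 in AOA+Asp and -0.31, 0.0047 and 0.43 in the 3 HT-DNA+AOA libraries. Values with a correction for GC content and transcript length are given beside several of the results. Of the fibroblast genes checked, *Vim* (2300 to 2967 CPM), *Col1a1* (117 to 159 CPM) and *Pdgfrb* were present, while *Lum* and *Dcn* had at most 1 count in any library. *Ptprc* and *Cd3e* had no count, the epithelial and endothelial genes had at most 10 counts, and the lysosomal gene *Cd68* was at 109.96 to 155 CPM.

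Measured per kilobase of transcript, the order of the 5 most abundant members was the same in every group, with *Phgdh* first, then *Shmt2*, *Psat1*, *Mthfd2* and *Psph*. In Mock cells these levels were 361 ± 1.92 (SD, n = 3), 292 ± 2.91, 239 ± 6.17, 101 ± 4.49 and 60.8 ± 4.01 CPM per kilobase, and no neighbors overlapped. The exception among the other groups was HT-DNA+AOA, where the ranges of *Phgdh* and *Shmt2* overlapped. *Mthfd1l*, *Shmt1* and *Aldh1l2* had the lowest levels, at 28.1 ± 0.97, 23.2 ± 0.54 and 22.6 ± 0.68 CPM per kilobase in Mock, and *Shmt1* and *Aldh1l2* overlapped there. *Aldh1l2* moved most within this lower set, from the lowest place with HT-DNA (11.04 ± 1.21 CPM per kilobase) to the highest with AOA (45.9 ± 4.91). Counts of *Phgdh* are the least certain, because 55.9% of the 31-base stretches of its transcripts also occur in 23 other genes, most often in *Gm7901*, whereas for every other member the share was at most 3.55%. The exons of *Aldh1l2* share 1056 bases (14.1%) with *Nopchap1*, which lies on the opposite strand, and those of *Psph* share 452 bases (10.4%) with *Cct6a*, and whether counting used strand is not given in the sources used here, so reads there cannot be told apart. *Shmt1* shares 184 bases (4.74%) with *Smcr8* and *Shmt2* 32 bases (1.03%) with *Ndufa4l2*, also on opposite strands.

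Their Ensembl identifiers are ENSMUSG00000053398 (*Phgdh*), ENSMUSG00000024640 (*Psat1*), ENSMUSG00000029446 (*Psph*), ENSMUSG00000020534 (*Shmt1*), ENSMUSG00000025403 (*Shmt2*), ENSMUSG00000005667 (*Mthfd2*), ENSMUSG00000040675 (*Mthfd1l*) and ENSMUSG00000020256 (*Aldh1l2*).

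**Figure D1:**
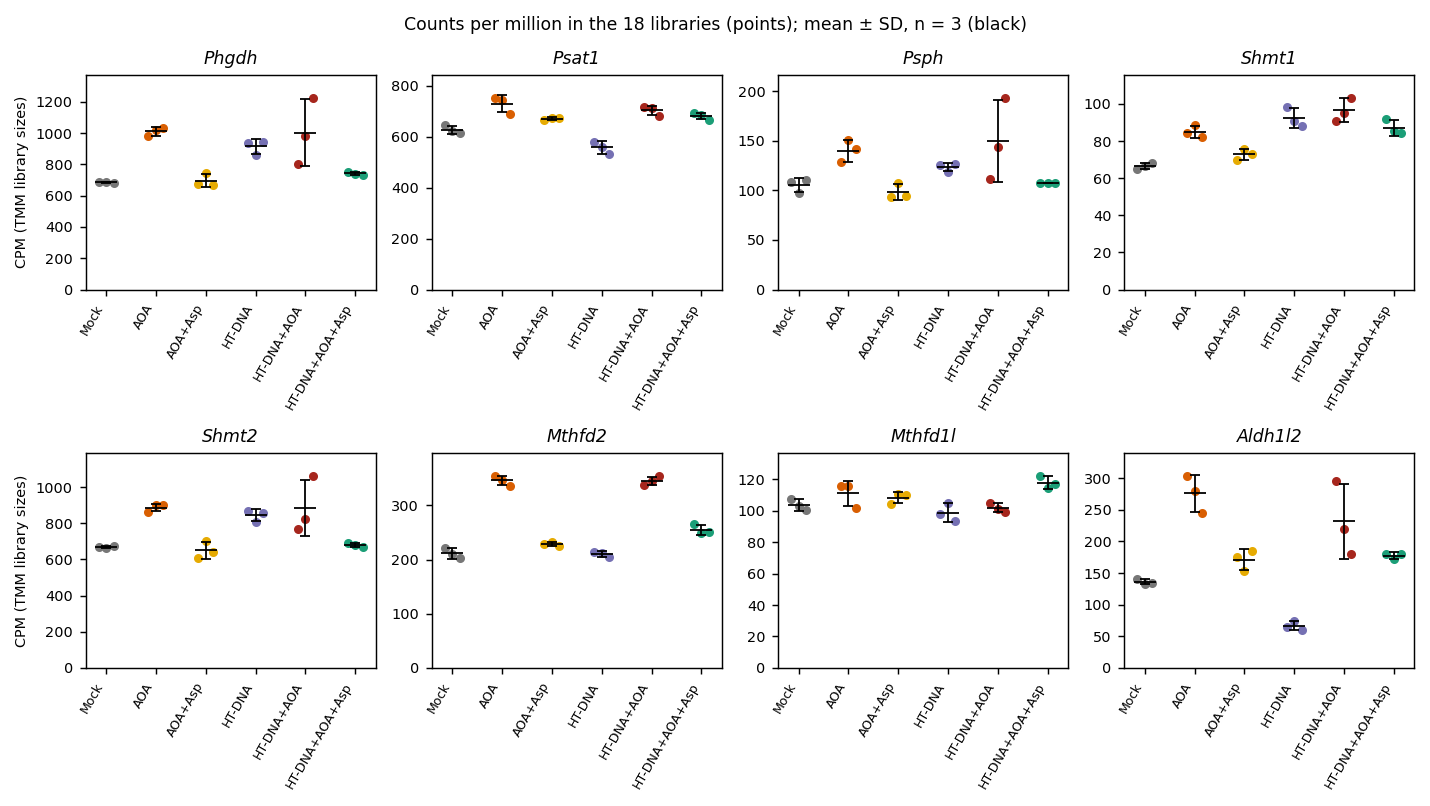
CPM (vertical axis, from 0) of the 8 members in the 6 groups. Each point is a library and the black marks are the mean and SD of 3 libraries. The AOA points lie above all Mock points for every gene but *Mthfd1l*, and the wide spread of HT-DNA+AOA for *Phgdh*, *Psph*, *Shmt2* and *Aldh1l2* is visible. The share of all tested genes whose points separate in this way was not counted.

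Promoters of these genes were read because several members moved together. RefSeq windows (GRCm38.p6, 250 bases before to 50 after a start site) were at hand for 7 members in 8 windows, with 2 for *Psat1* and none for *Aldh1l2*. Both strands were searched for TGATGNAA, the core of the amino acid response element that ATF4 binds, for CACGTG, the E-box that MYC binds, and for TGACNNNGC, the core of the antioxidant response element that NRF2 binds. TGATGNAA and CACGTG were in none of the 8 windows, against 3.97% and 7.15% of all 32851 promoter windows. TGACNNNGC was found in *Phgdh*, starting 53 bases before the start site, and in *Psph*, 5 bases after it, each time on the reverse strand, against 12.4% of all windows. The letters say nothing about binding outside these windows. The stretches before the start site that hold no annotated exon are shown for *Phgdh*, with its match in capitals, and for *Psat1* and *Mthfd2*, the members with a promoter window that were higher after AOA both without and with HT-DNA. They lie on the minus strand at chr3:98339991-98340219, chr19:15925060-15925309 and chr6:83317607-83317854.
Phgdh: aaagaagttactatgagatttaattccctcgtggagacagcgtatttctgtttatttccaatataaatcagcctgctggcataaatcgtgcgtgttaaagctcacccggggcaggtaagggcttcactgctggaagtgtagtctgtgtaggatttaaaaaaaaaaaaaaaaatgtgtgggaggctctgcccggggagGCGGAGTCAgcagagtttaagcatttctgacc
Psat1: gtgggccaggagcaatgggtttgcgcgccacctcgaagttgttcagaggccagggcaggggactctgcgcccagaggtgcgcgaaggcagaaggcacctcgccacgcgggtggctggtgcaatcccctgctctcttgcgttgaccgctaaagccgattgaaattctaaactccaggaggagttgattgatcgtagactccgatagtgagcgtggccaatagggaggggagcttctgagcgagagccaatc
Mthfd2: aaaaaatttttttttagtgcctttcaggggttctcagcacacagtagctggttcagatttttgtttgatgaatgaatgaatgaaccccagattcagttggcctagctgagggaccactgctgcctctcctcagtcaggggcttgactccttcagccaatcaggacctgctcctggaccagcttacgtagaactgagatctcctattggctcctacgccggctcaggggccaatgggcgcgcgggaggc

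AOA alone raised 7 of the 8 members. *Aldh1l2* rose 2.02-fold, *Mthfd2* 1.64-fold, and the serine synthesis genes between 1.16-fold and 1.48-fold. Only *Mthfd1l* was not called. Over all tested genes, 22.4% were called higher and 23.3% lower than Mock, and the median log2 fold change was 0.41 over the members against 0.02 over all genes.

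The first enzyme, *Phgdh*, had 686, 686 and 680.1 CPM in the Mock cultures and 979.8, 1022 and 1032 CPM in the AOA cultures. The groups were far apart, and the log2 fold change was 0.56 ± 0.10 (SE, adjusted p = 0.00017). *Psat1*, the aminotransferase of the pathway, went from 645, 619.9 and 615 CPM to 753, 745 and 689 CPM. This was the smallest change among the called members, 0.22 ± 0.06 on the log2 scale (adjusted p = 0.00399), and it was not called when plain library totals replaced TMM (0.09, adjusted p = 0.233). *Psph*, the last step, was at 108, 97.6 and 111 CPM in Mock and at 128, 151 and 141 CPM with AOA (log2 fold change 0.41 ± 0.13, adjusted p = 0.0141). Its call was the least stable, since it was lost with library totals (0.28, adjusted p = 0.0595), without Mock replicate 2 (0.36, adjusted p = 0.0646) and without AOA replicate 2 (0.35, adjusted p = 0.0632). *Cct6a*, which overlaps *Psph*, had a log2 fold change of 0.37 (adjusted p = 0.000105).

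Both hydroxymethyltransferases were higher. Mitochondrial *Shmt2* rose from 670.0, 661 and 674 CPM to 862, 899.9 and 899.7 CPM (log2 fold change 0.41 ± 0.09, adjusted p = 0.00106). Cytosolic *Shmt1*, the less abundant of the pair, rose from 65.0, 66.3 and 68.0 CPM to 84.1, 88.6 and 82.4 CPM (0.36 ± 0.07, adjusted p = 0.00028). No culture of either gene overlapped between the groups.

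The folate enzymes further along differed. *Mthfd2* had 221, 211 and 202 CPM in Mock and 355, 347 and 337 CPM with AOA, tight within each group and well apart (log2 fold change 0.71 ± 0.06, adjusted p = 1.23e-08). *Aldh1l2*, which oxidizes formyl-tetrahydrofolate, had 141, 133 and 135 CPM in Mock and 304, 280.1 and 245 CPM with AOA. Its log2 fold change of 1.02 ± 0.13 (adjusted p = 5.33e-06) was the sole member change of at least 1, a size that 3.58% of all genes reached in the higher direction. *Nopchap1*, the gene that overlaps it, had a log2 fold change of 0.12 (adjusted p = 0.494) in the same comparison. *Mthfd1l* stood apart, with 107, 103 and 100.4 CPM in Mock and 116, 116 and 102 CPM with AOA, and the groups overlapped (0.10, 95% interval -0.04 to 0.24, adjusted p = 0.221).

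Scaling matters for the size of these changes. With library totals the median of all genes shifted by -0.13, calls went from 49.1% to 32.1% higher, and 5 members stayed called higher. With the GC content and length correction 7 members were called, and the largest 3 values were 1.15 for *Aldh1l2*, 0.62 for *Mthfd2* and 0.50 for *Phgdh*. Over all genes the correction called 3898 higher and 3536 lower, against 3199 and 3317 without it.

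With aspartate added to AOA, most members lay nearer to the Mock mean than to the AOA mean. Compared with AOA, 6 members were lower and none higher, with *Aldh1l2* (log2 fold change -0.69 ± 0.13), *Mthfd2* (-0.60 ± 0.06), *Phgdh* (-0.54 ± 0.10), *Psph* (-0.51 ± 0.13), *Shmt2* (-0.45 ± 0.09) and *Shmt1* (-0.22 ± 0.07) in order of size. Among all genes 22.8% were lower and 23.5% higher, and the median was -0.48 over the members against -0.01 over all genes. This comparison shares the AOA libraries with the one above, so the AOA cultures enter both. With library totals 62.2% of its calls over all genes were higher, against 50.7% with TMM.

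The AOA+Asp cultures had 676, 743 and 669 CPM of *Phgdh*, which lay on both sides of the Mock values. They had 228, 233 and 226 CPM of *Mthfd2*, all below the AOA cultures and just above the highest Mock culture. *Mthfd2* was the most clearly lower gene (adjusted p = 1.3e-07). *Aldh1l2* was at 175, 153 and 185 CPM, between the Mock and the AOA cultures (adjusted p = 0.000306 against AOA). *Shmt2* had 608, 702 and 639.8 CPM and *Psph* had 93.7, 107 and 93.9 CPM, both around the Mock level (adjusted p = 0.000495 and 0.0034 against AOA). *Shmt1*, at 70.0, 75.7 and 72.9 CPM, lay above every Mock culture and was lower than with AOA (adjusted p = 0.0108). It lost that call with library totals (-0.14, adjusted p = 0.0712), with no filter on low counts (adjusted p = 0.0698) and without AOA replicate 2 (adjusted p = 0.0538).

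The aminotransferase and the formate synthetase behaved differently. *Psat1* had 665, 674 and 672 CPM with aspartate, below every AOA culture and above every Mock culture, and the difference from AOA was not called (-0.12, 95% interval -0.24 to -0.0024, adjusted p = 0.088), though DESeq2 called it (adjusted p = 0.0146). *Mthfd1l* had 105, 111 and 109.8 CPM, within the range of the AOA cultures (-0.04, adjusted p = 0.669).

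Against Mock, AOA+Asp cells had no member called in either direction by edgeR. One member, *Aldh1l2*, had an unadjusted p below 0.05, and DESeq2 called 0. Few genes were called at all in this comparison, 2.52% higher and 3.95% lower, so that 39.0% of the calls were higher (20.9% with library totals and 55.2% with the GC content and length correction). The value of *Aldh1l2* was 0.33 (95% interval 0.05 to 0.60, adjusted p = 0.151), its 3 cultures were all above Mock, and it was called with the GC content and length correction (0.30, adjusted p = 0.00257), as were *Phgdh* (0.13, adjusted p = 0.0312) and *Mthfd2* (0.12, adjusted p = 0.0483). Over all genes that correction called 971 higher and 788 lower, against 360 and 563 without it. *Aldh1l2* was also called by edgeR when only these 2 groups were fitted (0.32, adjusted p = 0.00089) and with no filter on low counts (0.32, adjusted p = 0.0106). The intervals of the other members reached from -0.37 for *Psph* to 0.27 for *Shmt1*.

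HT-DNA alone moved the members in different directions. *Aldh1l2* fell by 51.2% to the lowest level of any group, *Psat1* was slightly lower, and *Phgdh*, *Shmt1* and *Shmt2* were higher, while *Psph*, *Mthfd2* and *Mthfd1l* were not called. Thus 3 members were higher and 2 lower, where 24.2% and 24.0% of all genes were, and the member median of 0.11 stood against -0.01 for all genes. With library totals the median of all genes shifted by -0.11 and the share of calls that were higher went from 50.2% to 35.2%.

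*Aldh1l2* had 64.9, 74.5 and 60.2 CPM with HT-DNA, each below every Mock culture. Its log2 fold change was -1.04 ± 0.13 (adjusted p = 1.32e-05), and 3.04% of all genes were called with a value of -1 or less. With the GC content and length correction it was still called, at -0.67 (adjusted p = 8.47e-08). The overlapping *Nopchap1* fell in the same comparison by 0.66 on the log2 scale (adjusted p = 0.000717), from a mean of 865 to 549 CPM, and its part in the *Aldh1l2* value was not tested. *Psat1* had 580.3, 559 and 533 CPM (-0.17 ± 0.06, adjusted p = 0.02), a call lost without Mock replicate 1 (adjusted p = 0.0842), without HT-DNA replicate 3 (adjusted p = 0.0997) and with no filter on low counts (adjusted p = 0.202).

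*Shmt1*, the cytosolic form, had the largest rise among the members, to 98.2, 90.6 and 88.1 CPM (0.47 ± 0.07, adjusted p = 3.2e-05), and it held with the GC content and length correction (0.53). *Phgdh* rose to 939.7, 860.0 and 946 CPM (0.42 ± 0.10, adjusted p = 0.00251) and *Shmt2* to 870.2, 808 and 858 CPM (0.34 ± 0.09, adjusted p = 0.0047). Neither of those calls remained with the correction, which gave 0.07 for *Phgdh* (adjusted p = 0.151) and 0.03 for *Shmt2* (adjusted p = 0.533). *Psph* had 126, 119 and 127 CPM, all above Mock, but was not called (0.23, adjusted p = 0.148), and became -0.05 with the correction (adjusted p = 0.669). *Mthfd2* overlapped Mock, at 214, 212 and 204 CPM (-0.01, 95% interval -0.12 to 0.11). *Mthfd1l* was at 97.8, 105 and 93.7 CPM (-0.07, adjusted p = 0.402).

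In cells with HT-DNA, AOA raised *Aldh1l2*, *Mthfd2* and *Psat1*. *Aldh1l2* rose 3.49-fold, *Mthfd2* 1.64-fold and *Psat1* 1.26-fold over HT-DNA alone, and no member was lower. The other 5 members were not called, where 22.8% of all genes were higher and 22.7% lower. The member median was 0.20, against 0.02 for all genes.

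*Mthfd2* had 338, 344 and 354 CPM in the HT-DNA+AOA cultures, the same range as with AOA alone (0.72 ± 0.06, adjusted p = 6.3e-09). Its cultures lay close together. *Aldh1l2* had 296, 220.2 and 179.9 CPM, so its replicates differed by more than in any other group, yet all lay far above the HT-DNA cultures (1.80 ± 0.14, adjusted p = 4.47e-09, against 6.29% of genes at 1 or more). *Nopchap1* had 897, 690.1 and 528 CPM in those same libraries, and a log2 fold change of 0.36 (adjusted p = 0.0334). *Psat1* had 714, 712 and 682 CPM, clear of the HT-DNA cultures (0.33 ± 0.06, adjusted p = 8.28e-05).

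The other serine synthesis genes and *Shmt2* were spread over wide ranges in HT-DNA+AOA. *Phgdh* had 802, 981 and 1227 CPM in replicates 1, 2 and 3 and overlapped HT-DNA (0.13 ± 0.10, adjusted p = 0.302). *Shmt2* had 767, 823 and 1063 CPM (0.06 ± 0.09, adjusted p = 0.585) and *Psph* had 112, 144 and 194 CPM (0.27 ± 0.13, adjusted p = 0.0909). The GC trend of the libraries followed the order of these 3 genes, and *Aldh1l2* ran in the opposite order. With the GC content and length correction all 3 were called higher, with *Phgdh* at 0.32 (adjusted p = 6.89e-07), *Shmt2* at 0.29 (adjusted p = 1.15e-06) and *Psph* at 0.34 (adjusted p = 0.00115), so that 6 members were called. Over all genes the correction called 3662 higher and 3772 lower, against 3246 and 3231 without it. Without HT-DNA+AOA replicate 1, *Phgdh* (0.27, adjusted p = 0.00578) and *Psph* (0.45, adjusted p = 0.000505) were called, which made 5. No share over all genes is given for that fit. Without HT-DNA+AOA replicate 3, *Phgdh* (-0.04) and *Shmt2* (-0.09) were below HT-DNA and not called. *Shmt1*, at 90.6, 95.3 and 103 CPM, was not called either way (0.06, and -0.01 with the correction), nor was *Mthfd1l* at 105, 101 and 99.5 CPM (0.04).

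**Figure D2:**
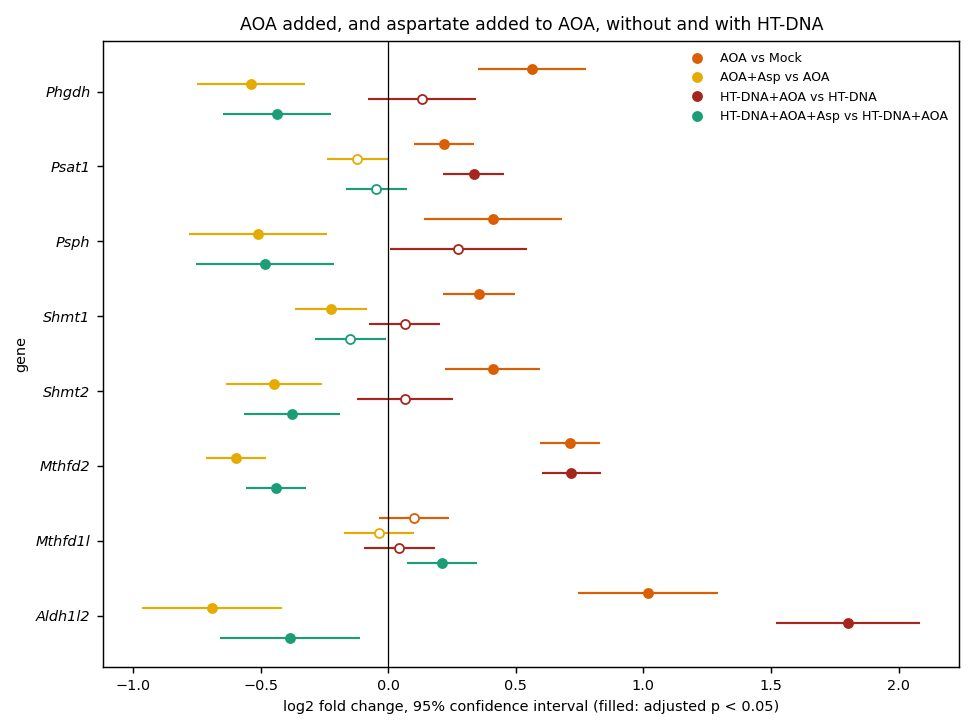
Log2 fold changes of the 8 members (horizontal axis) with 95% confidence intervals in 4 comparisons. Filled points have an adjusted p below 0.05. *Mthfd2* moved by 0.71 and 0.72 with AOA, and *Aldh1l2* by 1.02 and 1.80, whereas *Phgdh*, *Psph*, *Shmt1* and *Shmt2* were called for AOA alone and not on top of HT-DNA.

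Adding aspartate to HT-DNA+AOA lowered 5 members, *Psph* (-0.48 ± 0.13, adjusted p = 0.00505), *Mthfd2* (-0.44 ± 0.06, adjusted p = 3.97e-06), *Phgdh* (-0.44 ± 0.10, adjusted p = 0.00168), *Aldh1l2* (-0.38 ± 0.13, adjusted p = 0.0211) and *Shmt2* (-0.38 ± 0.09, adjusted p = 0.00206). *Mthfd1l* was the sole member that was higher (0.21 ± 0.07, adjusted p = 0.013). Over all genes 23.9% were lower and 23.7% higher, and the medians were -0.38 for the members and -0.01 for all genes. The share of calls that were higher was 49.8%, and 62.2% with library totals. When only these 2 groups were fitted, 3 members were called, and the shares above are those of the fit of all 18 libraries.

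The HT-DNA+AOA+Asp cultures were tight. *Psph* had 107.1, 107.1 and 107.3 CPM, below all 3 HT-DNA+AOA cultures, and was not called in the fit of the 2 groups alone (adjusted p = 0.0635). *Phgdh* had 752, 741 and 734 CPM and *Shmt2* had 692, 682 and 670.0 CPM, against Mock means of 684 ± 3.63 and 668 ± 6.67 CPM (SD, n = 3). *Mthfd2*, at 265, 249 and 250.9 CPM, lay above every Mock and HT-DNA culture. *Aldh1l2* had 181, 172 and 180.4 CPM and overlapped HT-DNA+AOA replicate 3, and its call was lost without HT-DNA+AOA replicate 1 (-0.17, adjusted p = 0.149), without HT-DNA+AOA+Asp replicate 2 (-0.36, adjusted p = 0.0679), with library totals (-0.30, adjusted p = 0.0926) and when only these 2 groups were fitted (-0.39, adjusted p = 0.0979). With the GC content and length correction *Aldh1l2* was at -0.60 (adjusted p = 6.09e-08). *Psat1* had 690.4, 684 and 666 CPM (-0.05, adjusted p = 0.518) and *Shmt1* had 91.7, 85.1 and 84.2 CPM (-0.15, adjusted p = 0.0753), neither called. *Mthfd1l* had 122, 115 and 117 CPM, the highest level of the 6 groups, and lost its call without HT-DNA+AOA+Asp replicate 1 (0.19, adjusted p = 0.0576), with no filter on low counts (adjusted p = 0.0621) and in the fit of the 2 groups alone (adjusted p = 0.0839).

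Against HT-DNA alone, HT-DNA+AOA+Asp cells had 4 members higher and 2 lower, where 23.2% and 23.5% of all genes were. *Aldh1l2* was 2.67-fold higher (log2 fold change 1.42 ± 0.13, adjusted p = 1.45e-06, against 2.58% of genes at 1 or more), and *Psat1* (0.29), *Mthfd2* (0.28) and *Mthfd1l* (0.25) were higher as well. *Phgdh* (-0.30 ± 0.10, adjusted p = 0.0201) and *Shmt2* (-0.31 ± 0.09, adjusted p = 0.0087) were lower. The call of *Phgdh* was lost without HT-DNA replicates 1 or 3 and without HT-DNA+AOA+Asp replicates 2 or 3 (adjusted p of 0.0529 to 0.0679). Both falls changed sign with the GC content and length correction, to 0.08 for *Phgdh* (adjusted p = 0.126) and 0.05 for *Shmt2* (adjusted p = 0.318). The other 4 remained higher with it, at 1.09 for *Aldh1l2*, 0.19 for *Psat1*, 0.27 for *Mthfd2* and 0.27 for *Mthfd1l*.

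**Figure D3:**
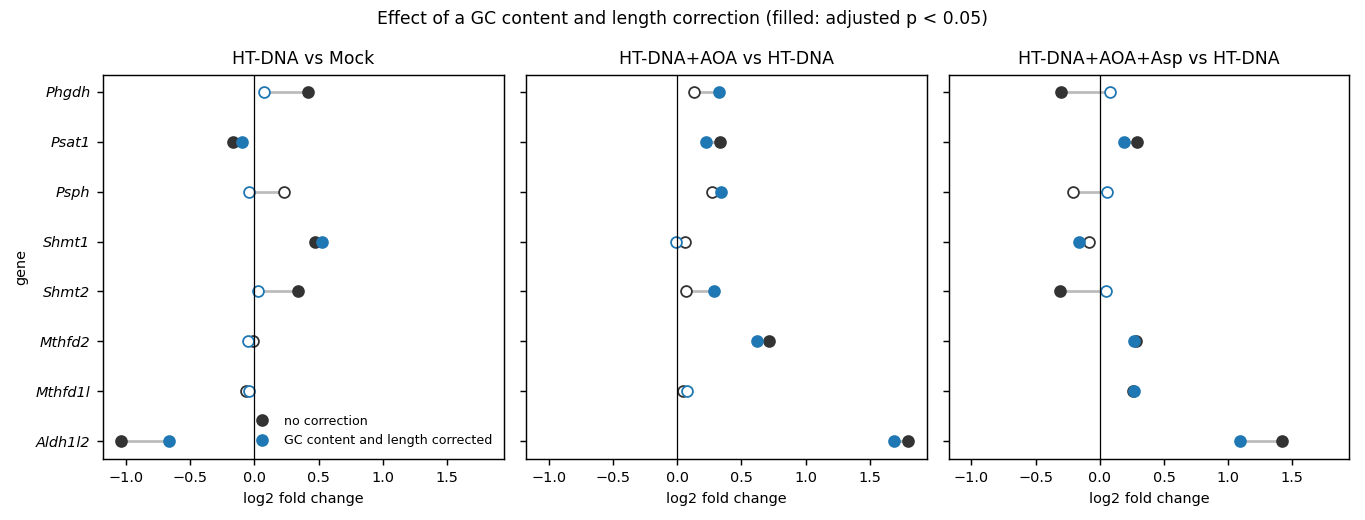
Log2 fold changes (horizontal axis) of the 8 members in the 3 comparisons that involve the HT-DNA group, without correction (black) and with the GC content and length correction (blue). Filled points have an adjusted p below 0.05. *Phgdh* and *Shmt2* move toward 0 against Mock and across 0 in the right panel, while *Mthfd2*, *Mthfd1l* and *Psat1* keep their side.

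Whether HT-DNA changed these genes once AOA was present was asked directly. Between HT-DNA+AOA and AOA edgeR called no member, with 1 (*Shmt1*) at an unadjusted p below 0.05 and 1 called by DESeq2, where 6.46% of all genes were higher and 6.98% lower. Without HT-DNA+AOA replicate 1, 3 members were called, *Psph* (0.27, adjusted p = 0.039), *Shmt1* (0.22, adjusted p = 0.0202) and *Aldh1l2* (-0.47, adjusted p = 0.00136). The shares over all genes just given are those of the fit of all 18 libraries, and none is given for that smaller fit. Between HT-DNA+AOA+Asp and AOA+Asp, *Shmt1* alone was called (0.26 ± 0.07, adjusted p = 0.0388), where 1.93% of genes were higher and 1.52% lower, and none of the 6 fits with a library left out called it (adjusted p of 0.052 to 0.203), nor did the fit with no filter on low counts (adjusted p = 0.126).

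Whether AOA acted differently in cells with and without HT-DNA was tested as an interaction, the first of these log2 fold changes less the second. *Aldh1l2* responded more to AOA in the presence of HT-DNA, by 0.78 ± 0.19 on the log2 scale (adjusted p = 0.0103), and this call held in each of the 12 fits with a library left out and with the GC content and length correction (0.54, adjusted p = 0.000266). *Phgdh* (-0.43 ± 0.14, adjusted p = 0.0476) and *Shmt1* (-0.29 ± 0.09, adjusted p = 0.0436) responded less. Both adjusted p-values were just under the threshold. Each was kept in 1 of the 12 fits with a library left out, the fit without HT-DNA+AOA replicate 3, in which *Psph* (-0.36, adjusted p = 0.0255) and *Shmt2* (-0.50, adjusted p = 0.000184) were called too. Without AOA, *Aldh1l2* was at 136 ± 4.12 CPM in Mock and at 66.6 ± 7.28 CPM with HT-DNA (SD, n = 3). The levels it reached with AOA were 276 ± 29.6 CPM without and 232 ± 58.9 CPM with HT-DNA. The part of the starting level in the interaction was not tested. For *Mthfd2* the difference between the AOA effects was 0.00 (95% interval -0.16 to 0.17). Over all genes the interaction was called higher in 7.23% and lower in 8.26%, which made 46.7% of the calls higher (64.5% with library totals). The corresponding interaction for aspartate was called for 0 members by edgeR and for 0 by DESeq2, with *Mthfd1l* at an unadjusted p below 0.05 (0.25, adjusted p = 0.287), where 0.266% of genes were higher and 0.785% lower. Of those calls 25.3% were higher, against 49.2% with the GC content and length correction and 36.0% with DESeq2. Without HT-DNA+AOA replicate 1 *Aldh1l2* was called (0.52, adjusted p = 0.0367).

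The spread within groups had its own pattern. Over the 18 libraries, after the group means were removed, *Phgdh* correlated with *Psph* (Pearson r = 0.95) and *Shmt2* (0.94) and ran opposite to *Aldh1l2* (-0.93), while its r with *Mthfd2* was 0.32. These are descriptions over libraries that share their preparation, and the HT-DNA+AOA libraries lie at both ends. With the group means kept, 23 of the 28 member pairs had r above 0, 15 had r above 0.5, and the values ran from -0.34 to 0.98. The members fell into one set around *Phgdh*, *Shmt2*, *Psph* and *Shmt1* and another with *Psat1* and *Aldh1l2* (r = 0.96), and *Mthfd2* had r of 0.53 to 0.79 with the genes of both.

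**Figure D4:**
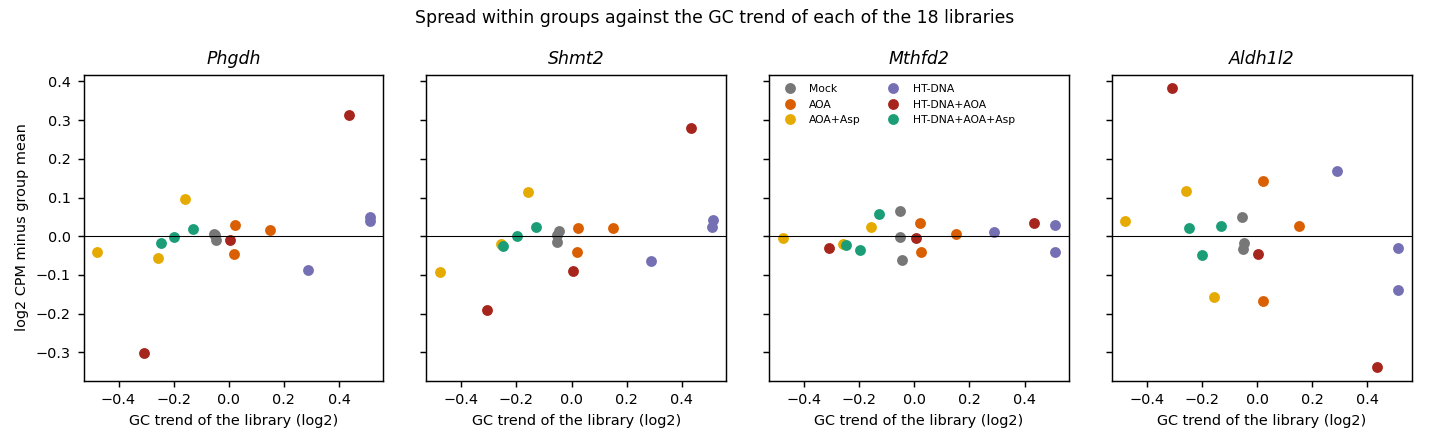
Deviation of log2 CPM from the group mean (vertical axis) against the GC trend of the library (horizontal axis, log2), for 18 libraries colored by group. The HT-DNA+AOA libraries span the plot, *Phgdh* and *Shmt2* from low to high and *Aldh1l2* from high to low, and *Mthfd2* stays near 0.

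Ratios of a mitochondrial to a cytosolic enzyme within a library do not depend on how libraries are scaled, but they were not corrected for GC content or transcript length. In HT-DNA+AOA replicates 1, 2 and 3, whose GC trend rose in that order, log2 *Aldh1l2*/*Aldh1l1* was 5.46, 4.60 and 4.21. There log2 *Shmt2*/*Shmt1* was 3.08, 3.11 and 3.36, and *Mthfd2*/*Mthfd1* and *Mthfd1l*/*Mthfd1* fell in that order. The part of the GC trend in the ratios was not tested. The log2 ratio of *Mthfd2* to *Mthfd1*, the trifunctional cytosolic enzyme, was 0.13 ± 0.03 (SD, n = 3) in Mock, 0.64 ± 0.03 with AOA and 0.19 ± 0.07 with AOA+Asp. With HT-DNA it was -0.11 ± 0.03, with HT-DNA+AOA 0.70 ± 0.05 and with HT-DNA+AOA+Asp 0.20 ± 0.04. The AOA groups did not overlap the groups without AOA or with aspartate, and the exact two-sided permutation test gave p = 0.1, the smallest that 3 against 3 allows. The ratio of *Aldh1l2* to its cytosolic relative *Aldh1l1* went from 3.10 ± 0.11 in Mock to 4.79 ± 0.09 with AOA and 3.995 ± 0.11 with AOA+Asp. In HT-DNA cells it went from 2.17 ± 0.15 to 4.76 ± 0.64 and 3.87 ± 0.13, again without overlap (exact permutation p = 0.1). The ratio of *Shmt2* to *Shmt1* overlapped between Mock and AOA, at 3.33 ± 0.03 and 3.38 ± 0.06 (exact permutation p = 0.3), and was lowest with HT-DNA+AOA+Asp at 2.97 ± 0.05. The ratio of *Mthfd1l* to *Mthfd1* was lower with AOA (-1.0025 ± 0.05) and with HT-DNA (-1.20 ± 0.08) than in Mock (-0.89 ± 0.02), each without overlap (exact permutation p = 0.1). These 4 ratios were compared in 9 comparisons each, and no p could pass adjustment at this size.

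**Figure D5:**
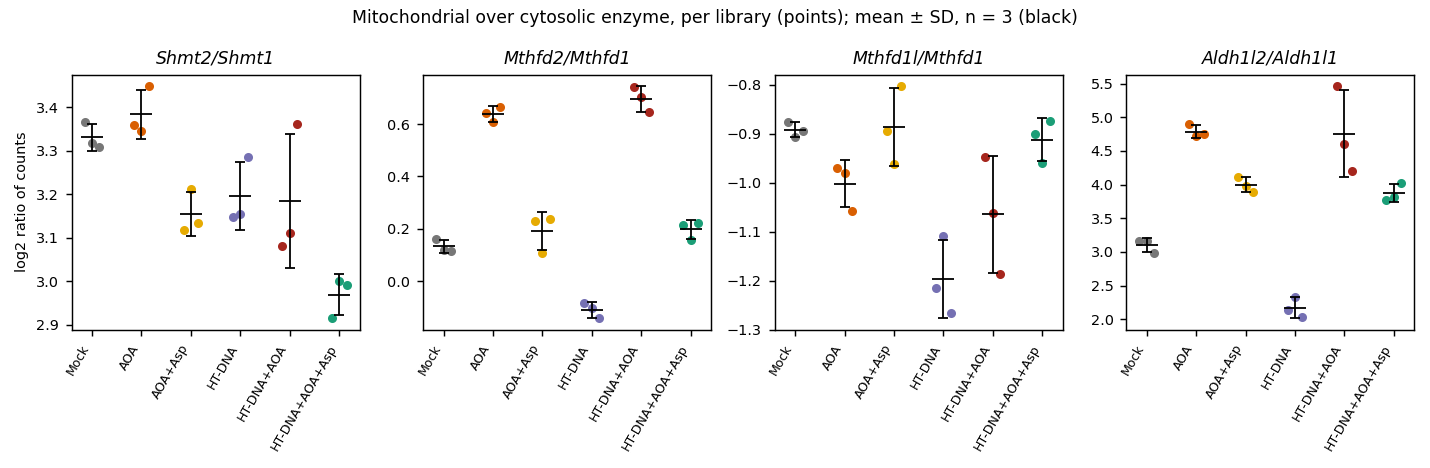
Log2 ratio of counts (vertical axis, not from 0) of a mitochondrial to a cytosolic enzyme in each library, with the mean and SD of 3 libraries in black. *Mthfd2*/*Mthfd1* and *Aldh1l2*/*Aldh1l1* are high in both AOA groups without aspartate, and *Shmt2*/*Shmt1* is not.

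Other genes of serine, folate and methionine metabolism were followed as a list of 40, of which 35 were tested (*Cbs*, *Sds*, *Tdh*, *Ggh* and *Dmgdh* were at most 0.30 CPM). With AOA 9 rose and 5 fell, where 22.4% of all genes were called higher and 23.3% lower. The rises were led by *Cth*, which makes cysteine from cystathionine (log2 fold change 0.90, from 88.2 ± 7.43 to 164 ± 3.09 CPM, adjusted p = 1.56e-08), the neutral amino acid carrier *Slc1a4* (0.77) and the methionine synthase reductase *Mtrr* (0.71). The largest falls were those of *Aldh1l1* (-0.67), *Mat2b* (-0.53), a subunit of methionine adenosyltransferase, and the serine palmitoyltransferase subunit *Sptlc2* (-0.40). *Mthfd1* rose by 0.21 (adjusted p = 0.0104) and *Mthfd2l*, the paralog of *Mthfd2*, did not pass (-0.06, adjusted p = 0.557). The list's median was 0.10. Adding aspartate to AOA lowered 11 and raised 6 (22.8% and 23.5% of all genes), with *Cth* (-0.80), *Mtrr* (-0.75) and *Slc1a4* (-0.63) the largest falls and *Mat2b* (0.44) and *Mthfd2l* (0.43) the largest rises. Between AOA+Asp and Mock only *Mthfd2l* (0.37), *Aldh1l1* (-0.56) and the glutamine and neutral amino acid carrier *Slc1a5* (-0.43) were called, where 2.52% of all genes were higher and 3.95% lower.

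With HT-DNA 11 genes of the list were higher and 10 lower than Mock, where 24.2% and 24.0% of all genes were. The reduced folate carrier *Slc19a1* (0.93), *Fpgs*, which adds glutamates to folates (0.80), and the sarcosine dehydrogenase *Sardh* (0.53) rose most, and the glycine cleavage gene *Amt* (-1.04, at 1.27 ± 0.44 CPM in Mock), the serine racemase *Srr* (-0.74) and *Mat2b* (-0.67) fell most. *Mthfd1* (0.23) and *Mthfd2l* (0.34) were higher. On top of HT-DNA, AOA raised 8 and lowered 8 (22.8% and 22.7% of all genes). *Cth* again rose most (1.27, adjusted p = 1.08e-10), followed by *Srr* (0.98) and *Slc1a4* (0.81), and *Aldh1l1* (-0.80), *Sptlc1* (-0.56) and *Fpgs* (-0.53) fell most. Aspartate then raised 7 and lowered 11 (23.7% and 23.9% of all genes), with *Cth* (-0.61), *Mtrr* (-0.56) and *Slc1a5* (-0.48) the largest falls and *Amt* (1.26), the mitochondrial formyltransferase *Mtfmt* (0.58) and *Aldh1l1* (0.52) the largest rises. *Slc1a4* (-0.29) fell and *Mthfd2l* (0.24) rose. HT-DNA+AOA+Asp differed from HT-DNA in 17 of the 35, 7 higher, led by *Amt* (1.123), *Srr* (0.85) and *Cth* (0.65), and 10 lower, led by *Gcat* (-0.60), *Fpgs* (-0.59) and *Ahcy* (-0.57), where 23.2% of all genes were higher and 23.5% lower. HT-DNA+AOA differed from AOA in 5 (6.46% of all genes were higher and 6.98% lower), among them *Sfxn2* (0.49) and *Dld* (0.24), which were higher, and *Amt* (-1.25) and *Mat2b* (-0.31), which were lower. HT-DNA+AOA+Asp differed from AOA+Asp in 2, *Sfxn3* (-0.41) and *Mat2b* (-0.26), both lower, where 1.52% of all genes were.

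Regulators were read as transcripts, and the amount and activity of their proteins were not measured in these libraries. *Atf4* itself was not called with AOA (594 ± 17.7 to 662 ± 24.9 CPM, log2 fold change 0.16, adjusted p = 0.124), though the AOA cultures all lay above Mock, nor with AOA on HT-DNA (-0.04, adjusted p = 0.735). *Atf4* was called lower with aspartate added to AOA (-0.20, adjusted p = 0.045) and higher with HT-DNA than in Mock (0.21, adjusted p = 0.0416). In that last comparison *Myc* was higher (0.33) and *Ddit3* lower (-0.38). *Asns*, asparagine synthetase and a textbook ATF4 target, rose from 405 ± 1.34 to 562 ± 17.2 CPM (0.47, adjusted p = 2.4e-06) and was lower again with aspartate (-0.43). *Ddit3*, which encodes CHOP, rose 7.98-fold, from 46.2 ± 2.94 to 369 ± 19.3 CPM (2.997, adjusted p = 3.49e-14), and was at 104 ± 2.97 CPM with AOA+Asp, still above Mock (1.17, adjusted p = 8.59e-08). *Myc* rose 3.86-fold, from 139 ± 4.43 to 537 ± 33.0 CPM, and was not called against Mock once aspartate was added (0.12, adjusted p = 0.306). In HT-DNA cells *Ddit3* (3.44) and *Myc* (1.89) rose likewise with AOA and fell with aspartate (-1.63 and -1.81). *Nfe2l2*, which encodes NRF2, was not called with AOA (0.09, adjusted p = 0.368), fell with HT-DNA (-0.42) and rose with AOA on HT-DNA (0.38).

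Genes with profiles most like the members were found by Pearson's r of log2 CPM over the 18 libraries. The mean profile of the members was closest to the stress gene *Sesn2* (0.97), the amino acid carrier subunit *Slc3a2* (0.96), *Cc2d1b* (0.95), *Wars1* (0.95) and *Aldh18a1* (0.95). *Mthfd2* was closest to *Gpat3*, *Ciart* and the glycyl-tRNA synthetase *Gars* (r of 0.99 each), and *Aldh1l2* to *Gramd1b* (0.99), *Eif3c* (0.99) and the isoleucyl-tRNA synthetase *Iars* (0.98). *Phgdh* was closest to the ribosomal protein gene *Rplp0* (0.99), *Gm4366* (0.99) and *Nop53* (0.99), and *Shmt2* to *Vars* (0.99), *Rplp0* (0.99) and *Psmd8* (0.99). *Psat1* was closest to *Eif3c*, *Aldh1l2* and *Sdha* (0.96 each), *Psph* to genes that included *Chmp4b* (0.97) and *Nagk* (0.96), and *Shmt1* to *G3bp1*, *Exosc2* and *Nudc* (0.97, 0.96 and 0.95). *Mthfd1l* had no close partner, with *Srsf4*, *Fbn1* and *Prpf4* at 0.84 to 0.85. The libraries share their groups and their GC trends, so these values describe profiles and nothing more.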

How the data were processed

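RNA was taken with TRIzol from 18 L929 cultures and sequenced by the study's provider. The authors deposited a table of estimated counts per gene for each library, not normalized. In it 11.6% of values were not whole, and the aligner, counter, genome build and use of strand are not given in the sources used here. Its columns of group means were not used. Groups came from the labels. Counts were rounded and tested in edgeR (4.0.16, R 4.3.3) with the robust quasi-likelihood F test, TMM scaling and 1 fit of all 18 libraries; filterByExpr (at least 10 counts in 3 libraries, 15 in total) kept 14263 genes, and p-values were adjusted by Benjamini-Hochberg over all of them. The step was tested on simulated data with 200 changed genes. Depth ran from 17901605 to 24057343 counts, and intervals reflect a spread shared by all 6 groups of 3 cultures.

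The members and lists were chosen with earlier results of these data known. Beside the members, the text names up to 3 called genes with the largest rise and fall per comparison in a fixed list of pathway genes (at least 1 CPM), the paralogs *Mthfd1*, *Aldh1l1* and *Mthfd2l*, fixed regulators, overlapping genes, and the closest profiles by Pearson's r of log2(CPM + 0.5). Some genes that this rule selects are not reported here. *Gcat* and *Ddit3* have 2 rows each, and the row with more counts was used. Alternatives were RLE or library-total scaling, other filters, DESeq2 (1.42.0), a replicate block, only the libraries compared, each library left out, a size threshold and offsets for GC content and transcript length (loess, span 0.3). Transcript lengths, GC content, shared sequence and overlapping exons came from GENCODE vM21, which matched 97.52% of tested genes, and promoters from RefSeq (GRCm38.p6). Same-numbered AOA and HT-DNA+AOA libraries deviated together (correlations of 0.111 to 0.421), and the block called 0 members between these groups, as did the fit without it. Ratios were compared by exact permutation tests in SciPy 1.17.1, and figures drawn with matplotlib 3.10.9.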

Additional observations from a re-analysis of the deposited data

Results flagged for a closer look

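For 3 genes the response to AOA differed between cells with and without HT-DNA by the interaction test of edgeR. *Aldh1l2* rose by 1.02 without and by 1.80 with HT-DNA, a difference of 0.78 (adjusted p = 0.0103). *Phgdh* rose by 0.56 without HT-DNA and was not called with it (0.13), a difference of -0.43 (adjusted p = 0.0476). *Shmt1* rose by 0.36 without HT-DNA and was not called with it (0.06), a difference of -0.29 (adjusted p = 0.0436). With a library left out, *Aldh1l2* kept its call in all 12 fits, while *Phgdh* and *Shmt1* each kept it in 1 of 12. The calls of *Phgdh* and *Shmt1* were also lost with RLE normalization (adjusted p = 0.0602 and 0.0557) and library totals (0.0654 and 0.114). They were lost too when only the libraries compared were fitted (0.107 and 0.087). *Shmt1* further lost its call with no filter on low counts (0.137) and a replicate block (0.0549). With the GC content and length correction the differences were 0.54, -0.17 and -0.35, all called. The GC trend of the libraries and the spread within HT-DNA+AOA moved with *Phgdh* and *Aldh1l2*, and their part beyond that correction was not tested. For *Aldh1l2*, the overlapping *Nopchap1* had an interaction of 0.24 (adjusted p = 0.381).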

How the results depend on the processing

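Of 1328 recomputed member values, 1174 kept their direction and their side of the threshold, 56 changed sign without being called in either fit, 62 lost a call, 34 gained one and 2 called values changed sign, both with the GC content and length correction in HT-DNA+AOA+Asp against HT-DNA (*Phgdh* 0.0801, *Shmt2* 0.0492). With at least 1 on the log2 scale required, 1 member was called in each of AOA against Mock, HT-DNA against Mock, HT-DNA+AOA against HT-DNA and HT-DNA+AOA+Asp against HT-DNA, and 0 in both additions of aspartate, in HT-DNA+AOA+Asp against AOA+Asp and in the AOA interaction. The GC content and length correction called 3 in AOA+Asp against Mock, 3 in HT-DNA against Mock, 6 in HT-DNA+AOA against HT-DNA and 1 in HT-DNA+AOA against AOA. Over all genes it called 971 higher and 788 lower in the first of these, against 360 and 563 without it. In the second it called 3200 and 2891 (3454 and 3425 without it). The third had 3662 and 3772 (3246 and 3231), and the fourth 1294 and 1689 (922 and 995). Fits of only the libraries compared called 1 in AOA+Asp against Mock, 3 in HT-DNA+AOA+Asp against HT-DNA+AOA, 2 in HT-DNA+AOA+Asp against AOA+Asp and 1 in the AOA interaction. No filter on low counts gave 1 in AOA+Asp against Mock and 0 in HT-DNA+AOA+Asp against AOA+Asp, and DESeq2 gave 1 in HT-DNA+AOA against AOA and 2 in HT-DNA+AOA+Asp against AOA+Asp. Over all genes DESeq2 called 1129 higher and 1072 lower in HT-DNA+AOA against AOA (922 and 995 by edgeR). In HT-DNA+AOA+Asp against AOA+Asp it called 399 higher and 333 lower (275 and 217 by edgeR). RLE normalization and library totals each gave 1 in the AOA interaction. Over all genes they called 1124 higher and 1024 lower, and 1388 and 763, against 1031 and 1178 in the main fit. For fits of only the libraries compared, with no filter, or with a library left out, counts over all genes are not given here. Their member counts therefore have no share of all genes beside them. Except where another value is given here or beside a result, the cause was not tested.

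With each library left out in turn, the members called ranged from 6 to 7 (AOA against Mock), 5 to 7 (AOA+Asp against AOA), 4 to 5 (HT-DNA against Mock), 3 to 5 (HT-DNA+AOA against HT-DNA), 5 to 6 (both comparisons of HT-DNA+AOA+Asp with HT-DNA and HT-DNA+AOA), 0 to 3 (HT-DNA+AOA against AOA), 1 to 5 (AOA interaction) and 0 to 1 (aspartate interaction), and were 0 throughout for AOA+Asp against Mock and HT-DNA+AOA+Asp against AOA+Asp. Of 45 same-numbered pairs 13 had a correlation of deviations over 0.1, the median was 0.015, and 9 of 18 libraries correlated best with their own number. Only between AOA and HT-DNA+AOA did all 3 same-numbered pairs exceed 0.1. Unlike-numbered libraries also exceeded it, among them AOA replicate 2 (0.19) and AOA+Asp replicate 2 (0.41), each with HT-DNA+AOA replicate 3. The numbers therefore do not settle whether cultures were paired. With a replicate block, HT-DNA+AOA+Asp against AOA+Asp had 0 members called (*Shmt1*, adjusted p = 0.0558), *Shmt1* lost its AOA interaction (adjusted p = 0.0549), and no other member call changed. The lowest count of a member in a library was 1285.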
